A study of Rattus norvegicus with 6 samples.

Results

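Wnt proteins, their receptors and the secreted proteins that hold them in check were followed in rat back skin through 51 genes, chosen by gene name from the 34225 loci of the count table. They comprise 19 Wnt ligands, 10 Frizzled receptors, the 2 co-receptors Lrp5 and Lrp6, 7 genes of the Lgr receptors and their R-spondin ligands, 5 Sfrp and Wif1 antagonists, 6 genes of the Dkk family and Notum, and the 2 feedback genes Axin2 and Rnf43. The rule for the 51 used names only and no measured value. The genes singled out and the lists used below were chosen with earlier results of these data known. Znrf3, the partner of Rnf43, was also sought and is not analysed here.

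The skin came from Sprague-Dawley rats, an outbred albino laboratory strain, in 3 groups of 2 RNA sequencing libraries. Untreated rats formed the first group. Gefitinib, a reversible inhibitor of the kinase of the epidermal growth factor receptor (EGFR), was dosed by mouth once each day at 80 mg/kg until a rash appeared. Afatinib, a covalent inhibitor of EGFR and related ERBB kinases, was dosed by the same route and schedule at 30 mg/kg. The labels call the untreated rats wild type and name no genetic change, age, sex or vehicle for any group. The labels do not say that the libraries of a group came from separate rats, so p-values measure the spread between these samples, which may be technical. Doses differ and dosing times may differ, so the inhibitors are set side by side and not compared at a matched dose.

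Library totals ran from 17206456 to 22086673 counts, and all 6 libraries held the epidermal marker genes, with summed basal keratinocyte markers between 724 and 3880 CPM. Levels are given as CPM, counts scaled to a common library size, after TMM, a correction for differences in library makeup. Afatinib replicate 1 stood apart from its partner. Over all genes, which are not independent, the correlation of its log levels was 0.935 and 0.939 (Pearson's r) to the untreated pair, yet 0.925 to its own partner. Summed markers of hair matrix and hair shaft, which included Krt35, Krt85 and Hoxc13, stood at 29.9 and 112 CPM in the untreated libraries, 2839 and 1876 CPM with gefitinib, and 439 and 2268 CPM with afatinib. Summed markers of skeletal muscle stood at 205000 and 188700 CPM in the untreated libraries, 28250 and 59450 CPM with gefitinib, and 126100 and 29380 CPM with afatinib. Afatinib replicate 1 was therefore the lowest inhibitor library in hair markers and the highest in muscle markers. The main afatinib values that follow are also given without it, as fold changes only. That fit holds 5 libraries, and the single afatinib library is taken to vary like the other groups. The library left out was the one nearest to untreated skin, so larger afatinib values without it follow in part from that choice.

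Wnt ligands are lipid-modified secreted proteins that bind Frizzled receptors. With Lrp5 or Lrp6 they stop the breakdown of beta-catenin, which then acts with TCF and LEF factors on target genes, whereas other Wnt and Frizzled pairs act through planar polarity and calcium routes. R-spondins bind Lgr receptors and remove Rnf43 and Znrf3 from the membrane, which leaves more Frizzled at the surface. Sfrp proteins and Wif1 bind Wnt ligands, Dkk proteins act at the Lrp co-receptors, and Notum removes the lipid from Wnt proteins. In skin the pathway is known for its part in forming hair follicles, in starting the growth phase of the hair cycle (anagen) and in the differentiation of the hair shaft.

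More of these genes rose than fell, and the genes that rose were found among ligands, Frizzled receptors, R-spondins, antagonists and feedback genes. In skin with a rash from either inhibitor, taken as the mean of both inhibitor groups against untreated skin, 20 of the 51 genes rose: the ligands Wnt4, Wnt5a, Wnt6, Wnt10a, Wnt10b and Wnt11, the receptors Fzd1, Fzd2, Fzd6 and Fzd10, all 4 R-spondins, Sfrp1, Sfrp2, Wif1, Notum, Axin2 and Rnf43. The genes that fell were Sfrp5, Wnt16 and Fzd4. As this is bulk skin, more cells of a type and more RNA per cell cannot be told apart in any of these results.

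The tests rest on edgeR's quasi-likelihood model with Benjamini-Hochberg adjustment over 16398 genes, at an adjusted p under 0.05. Of the 51 genes, 43 passed the filter on low counts. Wnt1 and Dkk1 had 0 counts in all 6 libraries, and Wnt2b, Wnt7a, Wnt8a, Wnt8b, Fzd8 and Dkkl1 had too few. A gene could pass through the group where it was high, so the counts that follow describe the genes tested and not the family as a whole. With both inhibitors together, 46.5% of the 43 tested genes were higher, against 11% of all genes tested, and 6.98% were lower, against 4.93%. Their median log2 fold change was 1.47, against 0.06 for all genes tested. Gefitinib alone gave 19 higher and 3 lower (44.2% and 6.98%), where 12.3% and 5.45% of all genes were higher and lower, with a median of 1.55 against 0.04. Afatinib alone gave 1 higher, Rspo2, and 1 lower, Sfrp5 (2.33% each), against 3.6% and 0.372% of all genes, although the median was 1.37 against 0.09 and 27 of the 43 had an unadjusted p under 0.05, as did 3591 of all 16398 genes (21.9%). Without afatinib replicate 1, the median log2 fold change of the 44 tested genes was 1.80 for afatinib, against 0.11 for all genes tested. For both inhibitors it was 1.64 against 0.08. More genes then passed for afatinib, among the 51 and over all genes, whereas leaving out afatinib replicate 2 instead gave fewer. Scaling by library size alone gave 15 higher and 0 lower for afatinib, while over all genes it moved the afatinib split from 591 higher and 61 lower to 1250 (7.62%) and 31 (0.189%). It moved the split over all genes for gefitinib from 2013 higher and 893 lower to 3071 and 191, and for both inhibitors from 1810 and 808 to 3126 and 225.

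All 3 comparisons with untreated skin use the same 2 untreated libraries. Every call against untreated skin also needs both of them: without either, no gene of the 51 passed, and over all genes 10 or 0 passed for gefitinib and 20 or 3 for both inhibitors, while 28 and 27 of 44 tested had an unadjusted p under 0.05 for gefitinib, as did 4229 of 17174 and 3903 of 17197 of all genes (24.6% and 22.7%). Leaving out gefitinib replicate 1 or 2 left fewer calls for gefitinib, for both inhibitors and for afatinib, which takes its spread from all groups. This held among the 51 genes and over all genes. By the libraries themselves, 26 of the 43 tested genes (60.5%) had all 4 inhibitor libraries above both untreated libraries, as did 27.2% of all genes, and 3 (6.98%) had all 4 below, as did 18.8% of all genes. The other 14 overlapped. Among the 20 genes that rose, afatinib replicate 1 was the lowest of the 4 inhibitor libraries in 17.

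**Figure D1:**
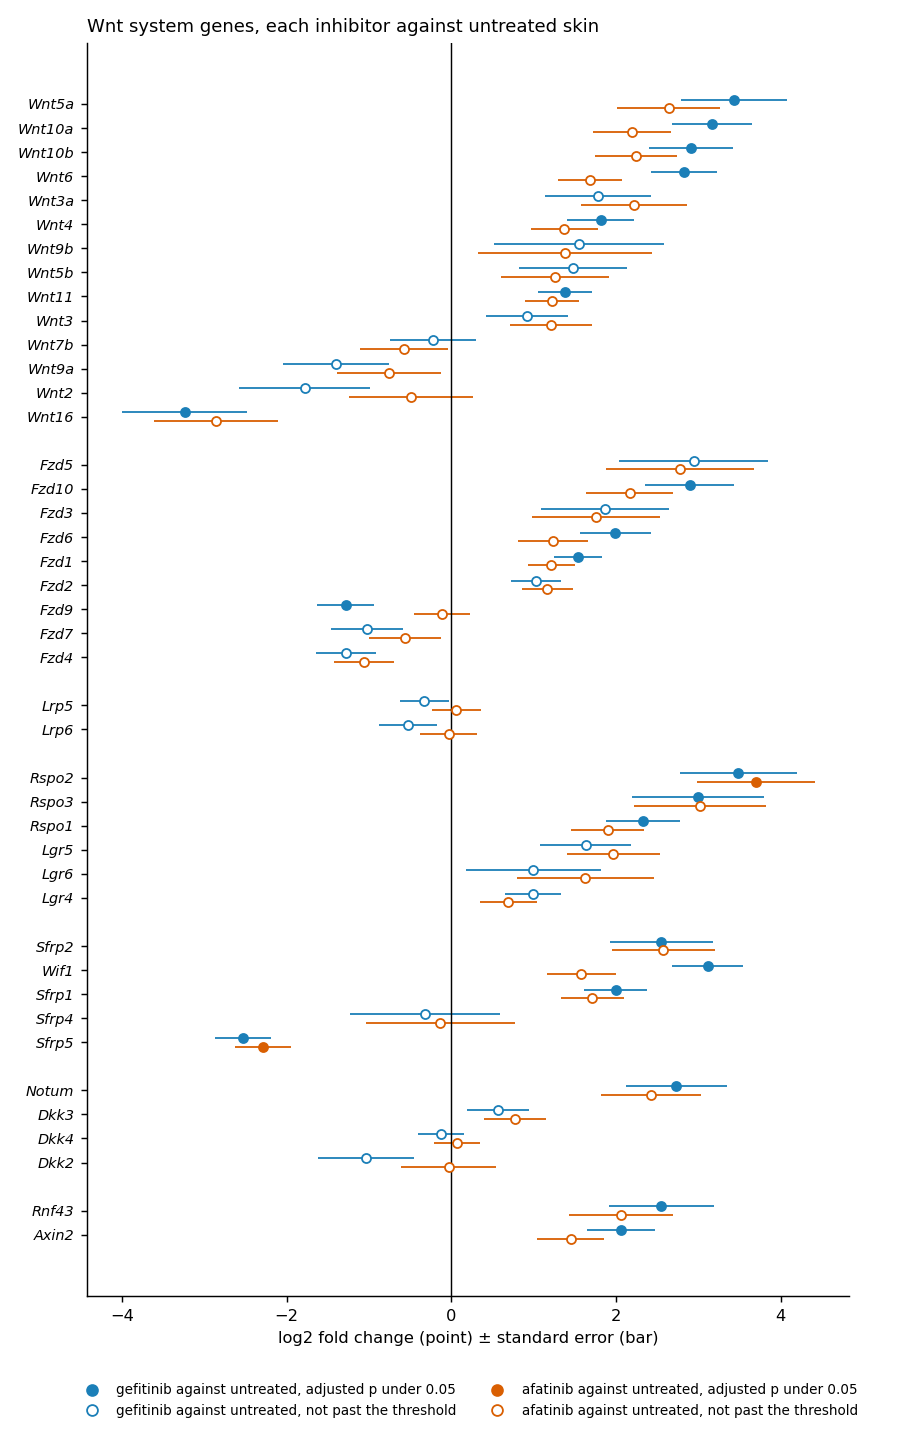
Log2 fold change against untreated skin (point, x axis) with its standard error (bar) for 42 of the 43 tested Wnt system genes, grouped by role, for gefitinib (blue) and afatinib (orange), with filled points for an adjusted p under 0.05. Rspo4 is left out because it had 0 counts in untreated skin. Gefitinib has filled points in every role but the Lrp co-receptors, and afatinib has filled points only for Rspo2 and Sfrp5.

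Of the 14 tested ligand genes, 6 rose and 1 fell with both inhibitors together, at a median log2 fold change of 1.42. Wnt5a, which acts mainly outside the beta-catenin route, had the highest mean FPKM (a level per gene length) of the ligands over the 6 libraries. It led in both gefitinib libraries and afatinib replicate 2 but not in the others: Wnt5a made up 3.68% and 9.12% untreated, 21.4% and 21.7% with gefitinib, and 14.2% and 20.1% with afatinib of the summed ligand FPKM. Wnt3 led in untreated replicate 1 with 19.9%, Wnt9a in untreated replicate 2 with 25.8%, and Wnt11 in afatinib replicate 1 with 20%. Wnt5a stood at 4.84 and 14.5 CPM in the untreated libraries, 104 and 105 CPM in the gefitinib libraries, and 31.9 and 88.9 CPM in the afatinib libraries. Every inhibitor library was above both untreated libraries, and the log2 fold change was 3.43 ± 0.64 (adjusted p = 0.018) for gefitinib and 2.64 ± 0.62 (adjusted p = 0.063) for afatinib. Wnt4, a ligand of epidermis and of many developing epithelia, stood at 19.6 and 24.4 CPM in the untreated libraries, 80.3 and 74.4 CPM in the gefitinib libraries, and 33.8 and 80.2 CPM in the afatinib libraries. It rose with gefitinib by 1.81 ± 0.41 (adjusted p = 0.0284) on the log2 scale, and the afatinib value was 1.37 ± 0.40 (adjusted p = 0.105), with replicate 1 nearer the untreated libraries than replicate 2. Wnt11, another ligand known mainly for routes outside beta-catenin, stood at 6.78 and 12 CPM in the untreated libraries, 25.8 and 23.3 CPM in the gefitinib libraries, and 23.3 and 20.7 CPM in the afatinib libraries. Here the afatinib libraries were alike, and the log2 fold change was 1.38 ± 0.33 (adjusted p = 0.0318) for gefitinib and 1.22 ± 0.33 (adjusted p = 0.0827) for afatinib.

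Wnt10b and Wnt10a, ligands of the beta-catenin route that are known from the growing hair follicle, rose along with Wnt6. Wnt10b stood at 1.73 and 1.8 CPM in the untreated libraries, 11.9 and 14.8 CPM in the gefitinib libraries, and 4.81 and 11.9 CPM in the afatinib libraries. Its log2 fold change was 2.91 ± 0.51 (adjusted p = 0.0155) for gefitinib and 2.24 ± 0.50 (adjusted p = 0.0547) for afatinib. Wnt10a stood at 4.29 and 4.31 CPM in the untreated libraries, 39 and 38.3 CPM in the gefitinib libraries, and 10.3 and 29 CPM in the afatinib libraries, with log2 fold changes of 3.17 ± 0.49 (adjusted p = 0.0131) and 2.19 ± 0.47 (adjusted p = 0.0519). Wnt6 stood at 4.56 and 6.28 CPM in the untreated libraries, 35.1 and 42.1 CPM in the gefitinib libraries, and 11.5 and 23.3 CPM in the afatinib libraries, with log2 fold changes of 2.83 ± 0.40 (adjusted p = 0.012) and 1.68 ± 0.39 (adjusted p = 0.0598). For all 3 genes the 4 inhibitor libraries lay above both untreated libraries and afatinib replicate 1 was the lowest of them. Left without that library, the afatinib log2 fold change was 3.19 ± 0.53 for Wnt5a and 1.86 ± 0.23 for Wnt4. It was 2.74 ± 0.35 for Wnt10b, 2.75 ± 0.24 for Wnt10a and 2.09 ± 0.29 for Wnt6. For Wnt11 and Wnt16 it was 1.12 ± 0.37 and -2.52 ± 0.91, both smaller in size than with that library kept.

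Wnt6 and Wnt10a are neighbours. In the coordinates of the count table (genome build not given in the labels or headers), Wnt6 (ENSRNOG00000017409, chromosome 9, 82033543 to 82047166) is followed on the same strand by Wnt10a (ENSRNOG00000052510, chromosome 9, 82053581 to 82066047) after a gap of 6414 bases with no locus between. Because these neighbours rose together, the 250 bases before the start of each are shown from the RefSeq promoter table (build GRCr8, + strand for both, 5′ to 3′). Capitals mark the letters GGGCGG or their reverse complement CCGCCC, the core of the GC box to which Sp1-like factors bind.
Wnt6 chr9:83778302-83778551: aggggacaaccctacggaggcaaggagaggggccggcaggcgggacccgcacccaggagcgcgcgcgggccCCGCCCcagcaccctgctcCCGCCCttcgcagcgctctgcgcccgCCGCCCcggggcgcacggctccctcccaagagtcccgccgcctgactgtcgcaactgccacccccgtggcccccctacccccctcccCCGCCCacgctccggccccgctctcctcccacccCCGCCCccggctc
Wnt10a chr9:83798344-83798593: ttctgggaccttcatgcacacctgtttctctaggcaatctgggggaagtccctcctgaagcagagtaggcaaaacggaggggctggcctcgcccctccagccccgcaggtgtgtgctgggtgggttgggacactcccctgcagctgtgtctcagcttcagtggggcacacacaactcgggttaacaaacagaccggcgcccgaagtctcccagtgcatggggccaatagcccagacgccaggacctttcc
The stretch before Wnt6 held these letters 5 times, always as CCGCCC, and the stretch before Wnt10a held them nowhere. Of the 51 genes 34 had an entry in the table, matched by symbol, and 16 of these 34 (47.1%) held the GC box within the 300 bases from 250 before to 50 after the start, against 28.3% of 33469 promoters. Among the 13 entries for genes that rose, 5 held it. Such a match describes letters and is not a measured binding site.

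No other pair of adjacent ligand genes had both members called. Wnt10b lies 10730 bases from Wnt1, which had 0 counts in every library. Wnt9b lies 22716 bases from Wnt3, a ligand of the beta-catenin route in epidermis and follicle, and neither passed the main edgeR test. Wnt3 stood at 15.5 and 7.39 CPM in the untreated libraries, 24.7 and 18.4 CPM in the gefitinib libraries, and 15.8 and 36.8 CPM in the afatinib libraries, and with both inhibitors its log2 fold change was 1.06 ± 0.45 (adjusted p = 0.137). Afatinib replicate 1, at 15.8 CPM, was close to untreated replicate 1, so the groups nearly met. With that library left out the afatinib value was 1.69 ± 0.43 for Wnt3. Without the filter on low counts edgeR called Wnt3 higher with afatinib and with both inhibitors. Wnt3a lies 21107 bases from Wnt9a and neither passed the main edgeR test. DESeq2 called Wnt3a higher with afatinib and with both inhibitors. Without the filter on low counts edgeR called it higher with each inhibitor and with both. With afatinib replicate 1 left out, the afatinib value was 2.53 ± 0.68 for Wnt3a. Wnt3a ran from 0.349 CPM in an untreated library to 3.97 CPM in an afatinib library, with every inhibitor library above both untreated ones. Wnt9a was between 1.01 and 5 CPM.

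Wnt16, a ligand described in skin and bone, went the other way. It stood at 7.47 and 2.33 CPM in the untreated libraries, 0.667 and 0.35 CPM in the gefitinib libraries, and 0.455 and 0.848 CPM in the afatinib libraries. Both untreated libraries were above all 4 inhibitor libraries although they differed from each other, and Wnt16 fell by 3.24 ± 0.76 (adjusted p = 0.0316) on the log2 scale with gefitinib, while the afatinib value was -2.86 ± 0.75 (adjusted p = 0.0805). Scaled by library size alone, the gefitinib value was -2.51 (adjusted p = 0.068). The remaining tested ligands, Wnt2, Wnt5b, Wnt7b and Wnt9b, did not pass in any comparison and stayed between 0.0692 CPM, for Wnt9b, and 4.35 CPM, for Wnt5b. Wnt2b had 30 counts over all libraries and overlaps St7l on the opposite strand by 14373 bases. St7l had 1734 counts, and since no source here states a strand for the counting, the Wnt2b counts are uncertain.

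**Figure D2:**
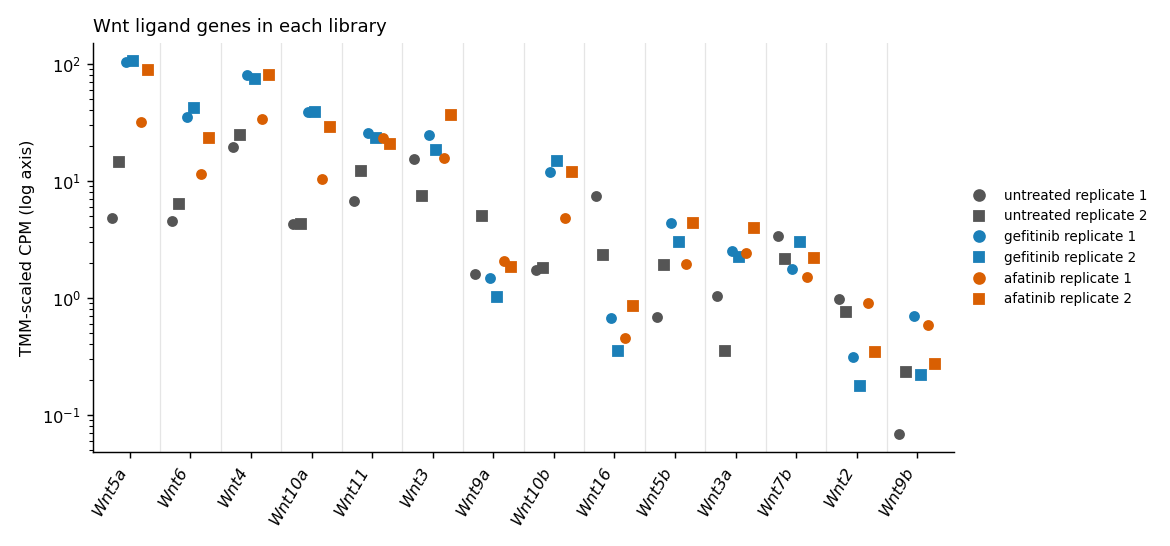
TMM-scaled CPM on a log axis for the 14 tested Wnt ligand genes in each of the 6 libraries (circles, replicate 1; squares, replicate 2). Wnt5a runs from 4.84 CPM in an untreated library to 105 CPM in a gefitinib library, Wnt16 is highest in the untreated libraries, and the afatinib circle of Wnt6, Wnt10a and Wnt10b lies below the other inhibitor points.

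Among the 9 tested Frizzled genes 4 rose and 1 fell with both inhibitors, at a median log2 fold change of 1.38, yet the ranges of the summed Frizzled level overlapped between groups: it was 410.4 and 532 CPM in the untreated libraries, 495 and 454 CPM with gefitinib, and 386 and 466 CPM with afatinib. Fzd10, a receptor of the beta-catenin route that the count table lists as a pseudogene, stood at 9.89 and 15.3 CPM in the untreated libraries, 100.2 and 87.3 CPM in the gefitinib libraries, and 27.3 and 85.8 CPM in the afatinib libraries. Its log2 fold change was 2.89 ± 0.54 (adjusted p = 0.0179) with gefitinib and 2.17 ± 0.53 (adjusted p = 0.0674) with afatinib, and all inhibitor libraries were above both untreated ones. Fzd6, known for the planar arrangement of hair follicles, stood at 28.8 and 23.9 CPM in the untreated libraries, 92.1 and 117 CPM in the gefitinib libraries, and 35.7 and 88.1 CPM in the afatinib libraries. It rose by 1.99 ± 0.43 (adjusted p = 0.0255) on the log2 scale with gefitinib, and afatinib gave 1.24 ± 0.42 (adjusted p = 0.148). Fzd1 stood at 24.3 and 26.8 CPM in the untreated libraries, 79.8 and 68.8 CPM in the gefitinib libraries, and 46.2 and 72.3 CPM in the afatinib libraries, with log2 fold changes of 1.54 ± 0.29 (adjusted p = 0.0177) and 1.21 ± 0.28 (adjusted p = 0.0613). Its 4 inhibitor libraries were closer together than those of Fzd6 and Fzd10. Fzd2, a receptor for Wnt5a among others, stood at 10.1 and 10.4 CPM in the untreated libraries, 24.1 and 17.8 CPM in the gefitinib libraries, and 18.5 and 27.5 CPM in the afatinib libraries. It passed only with both inhibitors together, at 1.10 ± 0.28 (adjusted p = 0.039), and gave 1.03 ± 0.31 (adjusted p = 0.0575) with gefitinib and 1.17 ± 0.31 (adjusted p = 0.0811) with afatinib.

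Fzd4, the receptor for Norrin in blood vessels and also a Wnt receptor, had the highest Frizzled level per length in both untreated libraries. It stood at 276 and 340.1 CPM in the untreated libraries, 137 and 117 CPM in the gefitinib libraries, and 191 and 106 CPM in the afatinib libraries. With both inhibitors together it fell by 1.17 ± 0.30 (adjusted p = 0.0419) on the log2 scale, and all 4 inhibitor libraries were below both untreated ones. Scaled by library size alone the value was -0.57 (adjusted p = 0.175). Of the 6 tested endothelial markers 3 fell with both inhibitors, and the sum of the 6 was 475 and 387 CPM in the untreated libraries, 205 and 71.9 CPM with gefitinib, and 282 and 238 CPM with afatinib; their part in the Fzd4 result was not tested. Fzd9 stood at 24.6 and 29 CPM in the untreated libraries, 11.9 and 10.1 CPM in the gefitinib libraries, and 32.3 and 17.2 CPM in the afatinib libraries. It fell with gefitinib by 1.28 ± 0.35 (adjusted p = 0.0447), while afatinib gave -0.12 ± 0.34 (adjusted p = 0.862) with replicate 1 above both untreated libraries. Library size alone as the scale gave -0.59 for gefitinib (adjusted p = 0.281). Fzd3, Fzd5 and Fzd7 did not pass the main edgeR test in any comparison. Without the filter on low counts edgeR called Fzd3, Fzd5 and Fzd7 for gefitinib, Fzd5 for afatinib, and Fzd3 and Fzd5 for both inhibitors. Library size alone as the scale called Fzd5 for gefitinib and for both inhibitors. DESeq2 called Fzd5 higher for both inhibitors and for each one, and Fzd3 for both inhibitors. Fzd5 had every inhibitor library above both untreated ones, from 0.622 CPM in an untreated library to 13.2 CPM in an afatinib library. The fit that leaves out afatinib replicate 1 gave afatinib log2 fold changes of 2.76 ± 0.30 for Fzd10, 1.74 ± 0.25 for Fzd6 and 1.49 ± 0.22 for Fzd1. It gave 1.42 ± 0.29 for Fzd2 and -1.55 ± 0.31 for Fzd4. It also gave 2.51 ± 0.43 for Fzd3, 3.56 ± 0.55 for Fzd5, -0.65 ± 0.29 for Fzd9 and -0.32 ± 0.50 for Fzd7.

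Per length, the makeup of the Frizzled transcripts differed between groups. On the FPKM scale, which divides counts by gene length, Fzd4 made up 47.6% and 43.1% untreated, 15.6% and 14.8% with gefitinib, and 30.4% and 12% with afatinib of the summed Frizzled level. Fzd10 made up 3.66% and 4.16% untreated, 24.5% and 23.7% with gefitinib, and 9.31% and 21% with afatinib. Fzd4 was the leading Frizzled gene in both untreated libraries and in afatinib replicate 1, and Fzd10 or Fzd6 led in the other 3 inhibitor libraries.

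The co-receptors Lrp5 and Lrp6 were not called in any comparison. Lrp5 stood at 75.7 and 111 CPM in the untreated libraries, 85.4 and 63.2 CPM in the gefitinib libraries, and 104 and 90.8 CPM in the afatinib libraries, with a log2 fold change of -0.13 ± 0.26 (adjusted p = 0.729) for both inhibitors. Lrp6 was between 19.2 and 44.5 CPM. Its gefitinib libraries, at 32.1 and 19.2 CPM, were below both untreated ones, at 32.6 and 41.3 CPM. The log2 fold change of Lrp6 was -0.53 ± 0.35 (adjusted p = 0.304) for gefitinib. The afatinib libraries of Lrp6 and both inhibitor groups of Lrp5 overlapped the untreated ones.

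R-spondins were low in untreated skin and all 4 rose with both inhibitors together, whereas the 3 Lgr receptors did not pass the main edgeR test. The median log2 fold change of these 7 genes was 2.11. Rspo2 was the only gene of the 51 called higher for afatinib against untreated skin in the main edgeR test. DESeq2 called 22 higher there (8.77% of all genes), and edgeR with a replicate block lost Rspo2. Rspo2 had 2 and 8 counts in the untreated libraries. It stood at 0.138 and 0.466 CPM in the untreated libraries, 4.08 and 2.98 CPM in the gefitinib libraries, and 2.66 and 5.48 CPM in the afatinib libraries. The inhibitor libraries lay well above both untreated ones, with log2 fold changes of 3.49 ± 0.71 (adjusted p = 0.0219) for gefitinib and 3.70 ± 0.72 (adjusted p = 0.0412) for afatinib. The afatinib call was lost when any 1 library other than afatinib replicate 1 was left out, with adjusted p between 0.0818 and 0.227. Rspo4, known for nail formation, had 0 counts in both untreated libraries. It stood at 3.96 and 2.06 CPM in the gefitinib libraries and 0.455 and 3.47 CPM in the afatinib libraries, from 148 and 97 summed counts in the gefitinib and afatinib libraries. Set against a floor of 3 counts per untreated library, which is 0.191 CPM, it was at least 15.7-fold higher with gefitinib (adjusted p = 0.0291) and at least 10.3-fold higher with afatinib (adjusted p = 0.0701, not past the threshold). With Rspo4 placed at these bounds the medians over the tested genes stayed at 1.55 and 1.37.

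Rspo1 and Rspo3, both known from dermal and mesenchymal cells, followed the same direction. Rspo1 stood at 1.59 and 1.63 CPM in the untreated libraries, 8.98 and 7.27 CPM in the gefitinib libraries, and 4.29 and 7.71 CPM in the afatinib libraries, with log2 fold changes of 2.33 ± 0.45 (adjusted p = 0.019) and 1.90 ± 0.44 (adjusted p = 0.061). Rspo3 stood at 0.692 and 1.4 CPM in the untreated libraries, 8.7 and 8.18 CPM in the gefitinib libraries, and 2.73 and 14.4 CPM in the afatinib libraries, with 3.0 ± 0.80 (adjusted p = 0.0434) and 3.03 ± 0.80 (adjusted p = 0.0814). Every inhibitor library was above both untreated libraries for both genes. On the single afatinib library left after removal of replicate 1 the values were 4.11 ± 0.68 for Rspo2, 2.25 ± 0.40 for Rspo1 and 3.75 ± 0.47 for Rspo3.

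The Lgr receptors mark epithelial stem cells, Lgr5 and Lgr6 in separate parts of the follicle, while Lgr4 is broader. Lgr4, which had the highest level per length of the Lgr and R-spondin genes, stood at 25 and 36.3 CPM in the untreated libraries, 51.8 and 70.2 CPM in the gefitinib libraries, and 37 and 61.9 CPM in the afatinib libraries, with a log2 fold change of 0.84 ± 0.30 (adjusted p = 0.0976) for both inhibitors. Lgr5 stood at 0.899 and 2.04 CPM in the untreated libraries, 5.06 and 4.11 CPM in the gefitinib libraries, and 3.96 and 7.6 CPM in the afatinib libraries, with 1.80 ± 0.51 (adjusted p = 0.0542). Both genes had all inhibitor libraries above both untreated ones without passing the test. Lgr6 stood at 2.35 and 1.69 CPM in the untreated libraries, 5.33 and 2.71 CPM in the gefitinib libraries, and 1.69 and 10.7 CPM in the afatinib libraries, with 1.31 ± 0.75 (adjusted p = 0.245), and its groups overlapped in afatinib replicate 1. Lgr5 was called higher by DESeq2, and by edgeR without the filter on low counts, for both inhibitors and for each one. The fit without the filter also called Lgr4 higher for gefitinib and for both inhibitors. In edgeR without afatinib replicate 1 the afatinib value was 2.35 ± 0.55 for Lgr5, 2.40 ± 0.53 for Lgr6 and 1.01 ± 0.31 for Lgr4.

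**Figure D3:**
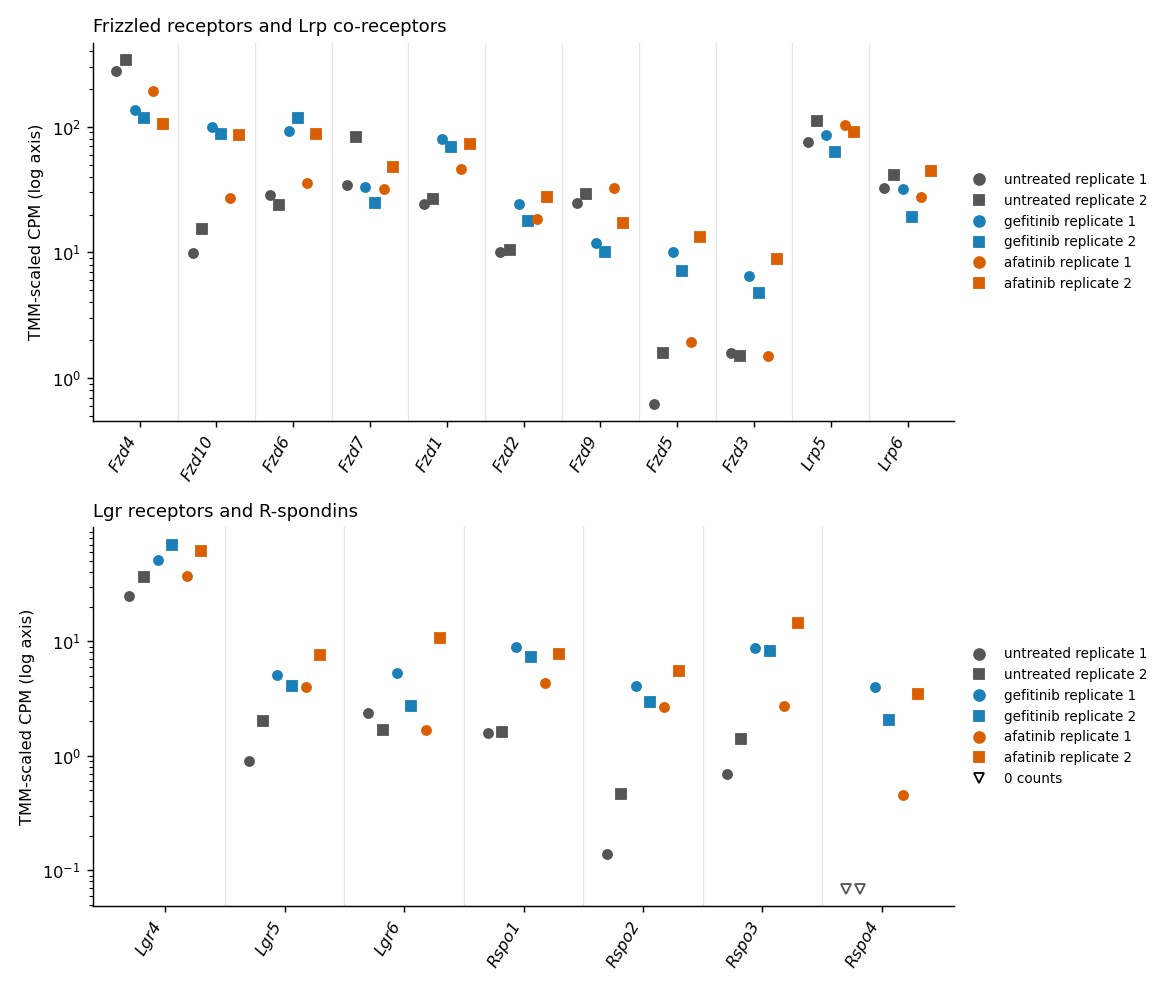
TMM-scaled CPM on a log axis for the tested Frizzled and Lrp genes (upper panel) and the Lgr and R-spondin genes (lower panel) in each library, with open triangles for 0 counts. Fzd4 falls from 276 and 340.1 CPM in the untreated libraries to between 106 and 191 CPM in the inhibitor libraries, and Rspo4 has counts in the inhibitor libraries only.

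Secreted antagonists moved in both directions. Of the 5 Sfrp and Wif1 genes, 3 rose and 1 fell with both inhibitors, at a median log2 fold change of 1.85. Sfrp5, which binds Wnt5a and other ligands, stood at 21.9 and 17.9 CPM in the untreated libraries, 3.29 and 3.59 CPM in the gefitinib libraries, and 3.51 and 4.59 CPM in the afatinib libraries. All inhibitor libraries lay far below both untreated ones and close to each other. Sfrp5 fell by 2.53 ± 0.34 (adjusted p = 0.0108) on the log2 scale with gefitinib and by 2.29 ± 0.34 (adjusted p = 0.0308) with afatinib, the lowest adjusted p of the 51 genes in both comparisons. The afatinib call was lost without either untreated or either gefitinib library (adjusted p between 0.052 and 0.215) and with library size alone as the scale (-1.63, adjusted p = 0.0839). Sfrp1, a related antagonist, stood at 17.7 and 15 CPM in the untreated libraries, 80.7 and 49.7 CPM in the gefitinib libraries, and 37.3 and 69.7 CPM in the afatinib libraries. It rose with gefitinib by 2.0 ± 0.39 (adjusted p = 0.0191), and afatinib gave 1.71 ± 0.38 (adjusted p = 0.0549). Sfrp2 stood at 0.553 and 2.39 CPM in the untreated libraries, 10 and 7.48 CPM in the gefitinib libraries, and 9.16 and 8.6 CPM in the afatinib libraries, with log2 fold changes of 2.55 ± 0.62 (adjusted p = 0.0349) and 2.57 ± 0.63 (adjusted p = 0.0674). Both Sfrp1 and Sfrp2 had all inhibitor libraries above both untreated ones, the reverse of Sfrp5. Per length, Sfrp5 made up 48.7% and 44.5% untreated, 3.77% and 5.4% with gefitinib, and 6.82% and 7.39% with afatinib of the summed level of Sfrp genes and Wif1. Sfrp1 made up 20.2% and 19.1% untreated, 47.2% and 38.2% with gefitinib, and 37.1% and 57.4% with afatinib, so that the leading antagonist transcript of this class was Sfrp5 in untreated skin and Sfrp1 or Wif1 in every inhibitor library.

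Wif1, which binds Wnt ligands directly, stood at 2.84 and 3.55 CPM in the untreated libraries, 22.7 and 32.7 CPM in the gefitinib libraries, and 6.37 and 12.7 CPM in the afatinib libraries. It rose with gefitinib by 3.11 ± 0.43 (adjusted p = 0.0116), and afatinib gave 1.58 ± 0.42 (adjusted p = 0.0811). Both afatinib libraries were between the untreated and the gefitinib libraries. Setting afatinib replicate 1 aside gave afatinib values of -2.12 ± 0.36 for Sfrp5, 2.09 ± 0.32 for Sfrp1, 2.52 ± 0.70 for Sfrp2 and 1.98 ± 0.34 for Wif1. Sfrp4 stood between 4.77 and 35.6 CPM with the replicates of each inhibitor far apart. It overlaps Nme8 on the opposite strand, which had 11 counts over all libraries against 2434 for Sfrp4. The summed fibroblast markers were also apart within each inhibitor group, at 21580 and 10380 CPM in the untreated libraries, 6410 and 1345 CPM with gefitinib, and 9183 and 3406 CPM with afatinib, and their part in the spread of Sfrp4 was not tested.

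Notum, the enzyme that inactivates Wnt proteins by removing their lipid, stood at 1.59 and 2.62 CPM in the untreated libraries, 13.8 and 14.4 CPM in the gefitinib libraries, and 5.13 and 17.5 CPM in the afatinib libraries. It rose with gefitinib by 2.73 ± 0.61 (adjusted p = 0.0281), and afatinib gave 2.43 ± 0.61 (adjusted p = 0.0723), with replicate 1 below replicate 2. The Dkk antagonists did not follow. Dkk4, the Dkk gene with the highest level per length, stood at 13.6 and 12.5 CPM in the untreated libraries, 12.6 and 11.3 CPM in the gefitinib libraries, and 15.1 and 12.2 CPM in the afatinib libraries, and its log2 fold change for both inhibitors was -0.03 ± 0.24 (adjusted p = 0.934). Dkk2 stood at 5.67 and 5.82 CPM in the untreated libraries, 4.35 and 1.23 CPM in the gefitinib libraries, and 5.33 and 5.9 CPM in the afatinib libraries, with -0.53 ± 0.49 (adjusted p = 0.464). Gefitinib replicate 2 was the low library of Dkk2. Both gefitinib libraries of Dkk2 were below both untreated ones, at -1.04 ± 0.59 (adjusted p = 0.234) for gefitinib. The afatinib libraries of Dkk2 and both inhibitor groups of Dkk4 overlapped the untreated ones. Dkk3, a divergent member of the family, was between 8.9 and 26 CPM and was not called. Dkk1, with 0 counts in libraries of at least 17206456 counts, could still lie at up to 3 counts per library.

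**Figure D4:**
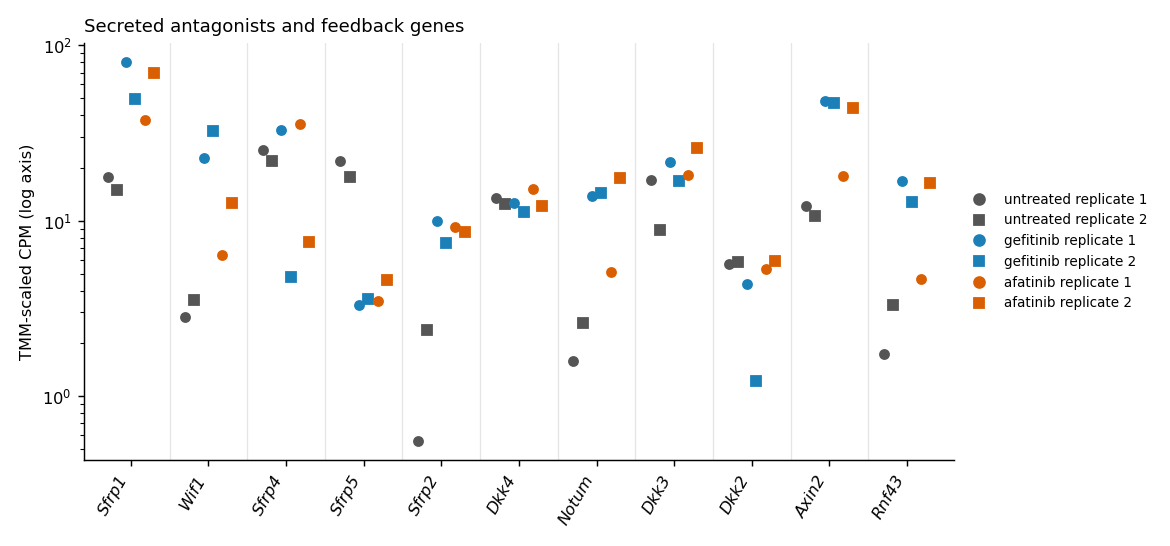
TMM-scaled CPM on a log axis for the tested secreted antagonists and the feedback genes Axin2 and Rnf43 in each library. Sfrp5 lies at 21.9 and 17.9 CPM in the untreated libraries and between 3.29 and 4.59 CPM in the inhibitor libraries, whereas Dkk4 stays between 11.3 and 15.1 CPM in all of them.

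Axin2 and Rnf43 are direct targets of beta-catenin that in turn limit the pathway, Axin2 in the destruction complex and Rnf43 at the membrane, and Axin2 is widely used as a readout of pathway activity. Axin2 (ENSRNOG00000055010, chromosome 10, 97212432 to 97239642 in the count table) stood at 12.2 and 10.7 CPM in the untreated libraries, 48.3 and 46.9 CPM in the gefitinib libraries, and 17.9 and 44.2 CPM in the afatinib libraries. Its log2 fold change was 2.06 ± 0.42 (adjusted p = 0.0214) for gefitinib and 1.45 ± 0.41 (adjusted p = 0.0962) for afatinib, where replicate 1 was closer to untreated skin than to replicate 2. Rnf43 stood at 1.73 and 3.32 CPM in the untreated libraries, 16.9 and 12.8 CPM in the gefitinib libraries, and 4.68 and 16.4 CPM in the afatinib libraries, with 2.55 ± 0.64 (adjusted p = 0.0374) and 2.06 ± 0.63 (adjusted p = 0.116). For both genes the 4 inhibitor libraries lay above both untreated ones. On afatinib replicate 2 alone the afatinib values were 1.95 ± 0.22 for Axin2, 2.68 ± 0.44 for Rnf43 and 3.04 ± 0.38 for Notum.

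As Axin2 is the classic target of TCF and LEF factors, the 250 bases before its start are shown from the RefSeq table (build GRCr8, + strand, 5′ to 3′). Capitals mark CTTTGAT, a form of the core letters these factors bind. Other forms of that core were not sought and are not marked.
Axin2 chr10:94398535-94398784: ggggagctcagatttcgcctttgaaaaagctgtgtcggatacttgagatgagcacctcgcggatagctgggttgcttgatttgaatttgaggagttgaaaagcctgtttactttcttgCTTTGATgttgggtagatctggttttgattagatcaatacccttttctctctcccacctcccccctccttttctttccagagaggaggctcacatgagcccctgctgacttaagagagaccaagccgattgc
The letters occur once on this strand. CTTTGAT or its reverse complement ATCAAAG was present in the 300-base windows of 2 of the 34 matched genes (5.88%), Axin2 and Dkkl1, against 3.63% of 33469 promoters, and in 1 of the 13 matched genes that rose. A window without the letters says only that they are not in that stretch.

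Other genes of the pathway were taken from 7 lists. With both inhibitors together 11% of all genes tested were higher and 4.93% lower. Among the nuclear genes of these lists, 3 of 14 rose (21.4%) and 1 fell, at a median log2 fold change of 0.29, against 0.06 for all genes. Lef1, the beta-catenin partner of the hair matrix, stood at 3.25 and 10.5 CPM in the untreated libraries, 146 and 156 CPM in the gefitinib libraries, and 33.8 and 101 CPM in the afatinib libraries, with log2 fold changes of 4.45 ± 0.71 (adjusted p = 0.0137) and 3.28 ± 0.68 (adjusted p = 0.0475). Tle1, a co-repressor of TCF and LEF factors, stood at 35.5 and 43.8 CPM in the untreated libraries, 10.5 and 15.5 CPM in the gefitinib libraries, and 12.5 and 11.9 CPM in the afatinib libraries, and it fell by 1.61 ± 0.29 (adjusted p = 0.0162) and 1.70 ± 0.29 (adjusted p = 0.035) on the log2 scale. Inhibitor libraries were all above untreated for Lef1 and all below for Tle1. Of 11 further target and feedback genes, 6 rose with both inhibitors (54.5%) and none fell (median 1.98). Bambi, a pseudoreceptor, stood at 8.58 and 8.61 CPM untreated, 99.8 and 91.5 CPM with gefitinib and 30.5 and 67 CPM with afatinib, with 3.48 ± 0.40 (adjusted p = 0.00971) and 2.50 ± 0.39 (adjusted p = 0.032). Nkd2, an inhibitor of Dishevelled, stood at 12.6 and 14.1 CPM untreated, 71.7 and 117 CPM with gefitinib and 45.7 and 69.7 CPM with afatinib, with 2.82 ± 0.35 (adjusted p = 0.0105) and 2.11 ± 0.34 (adjusted p = 0.0327). Both rose with each inhibitor.

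Among 6 co-receptors (median 0.66), 2 rose (33.3%, against 11% of all genes), Ror2 and Ptk7, which serve the routes outside beta-catenin. Ror2, a receptor for Wnt5a, stood at 3.25 and 4.02 CPM untreated, 31 and 28 CPM with gefitinib and 10.9 and 30.2 CPM with afatinib, with 3.02 ± 0.50 (adjusted p = 0.0147) and 2.50 ± 0.49 (adjusted p = 0.0415). Ptk7 stood at 10.8 and 16.5 CPM untreated, 99.5 and 92.6 CPM with gefitinib and 33.6 and 97.8 CPM with afatinib, with 2.82 ± 0.51 (adjusted p = 0.0169) and 2.27 ± 0.50 (adjusted p = 0.0537). Of 10 planar polarity genes, 4 rose with both inhibitors (40%, against 11% of all genes), among them the membrane proteins Celsr2 and Vangl2. None of the 10 fell, against 4.93% of all genes. Celsr2 stood at 18.5 and 24 CPM untreated, 144 and 138 CPM with gefitinib and 48 and 148 CPM with afatinib, with 2.73 ± 0.52 (adjusted p = 0.0182) and 2.21 ± 0.51 (adjusted p = 0.0581). Vangl2 stood at 3.11 and 4.42 CPM untreated, 37.4 and 26.9 CPM with gefitinib and 7.67 and 39.6 CPM with afatinib, with 3.09 ± 0.72 (adjusted p = 0.0307) and 2.65 ± 0.71 (adjusted p = 0.0827). The median log2 fold change of these 10 genes was 1.02 with both inhibitors.

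Of the 5 tested genes among 9 other extracellular regulators, 2 rose (40%, against 11% of all genes). These were Kremen2, a receptor for Dkk proteins, and Tpbg (median 1.16). Kremen2 stood at 1.04 and 2.33 CPM untreated, 14.7 and 18.6 CPM with gefitinib and 4.09 and 9.91 CPM with afatinib, with 3.29 ± 0.58 (adjusted p = 0.0161) and 2.05 ± 0.57 (adjusted p = 0.0886). Neither of the 2 secretion genes passed (median 0.65): Wls, the carrier of Wnt proteins to the surface, gave 1.20 ± 0.43 (adjusted p = 0.0907) with gefitinib. The 16 genes of the destruction complex and Dishevelled, which act on beta-catenin inside the cell, held no call with both inhibitors, where 4 of the 16 had an unadjusted p under 0.05, as did 35.2% of all genes, and their median was -0.11. Dvl2, a Dishevelled gene, was the one to rise with gefitinib (6.25%, against 12.3% of all genes), by 0.96 ± 0.22 (adjusted p = 0.0306). Fits without afatinib replicate 1, chosen for these lists after the data were seen, gave other medians for both inhibitors. They were 0.37 for nuclear genes, 2.14 for target genes, 0.89 for co-receptors and 1.23 for planar polarity genes. Other extracellular regulators gave 1.35, secretion genes 0.76, and destruction complex and Dishevelled genes 0.03, against 0.08 for all genes. The lack of a call on the destruction complex list depended on keeping that library. Whether these lists differ from each other was not tested.

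Markers of some cell types rose along with the Wnt genes, and markers of others did not. All 12 tested hair matrix and shaft markers, all 9 of the inner root sheath and all 7 of cycling cells rose with both inhibitors, and with afatinib alone 5, 4 and 7 of them. On afatinib replicate 2 alone, as the afatinib group, the median log2 fold changes of these lists were 5.29, 4.01 and 2.52. With both afatinib libraries they were 4.51, 3.48 and 2.27. The cycling markers summed to 64.6 and 86.2 CPM in the untreated libraries, 639.5 and 678 CPM with gefitinib, and 279 and 511 CPM with afatinib. Of 9 dermal papilla markers 2 rose, Corin and Crabp1, and 1 fell, Prom1, with both inhibitors, and they summed to 57.4 and 49.8 CPM in the untreated libraries, 183 and 123 CPM with gefitinib, and 95.5 and 172 CPM with afatinib. Neutrophil markers, 4 of 6 higher, summed to 7.81 and 6.87 CPM in the untreated libraries, 717 and 1274 CPM with gefitinib, and 1920 and 1687 CPM with afatinib. Nearly all of that sum is S100a8 and S100a9, which keratinocytes of inflamed skin also make, and the other 4 markers, Csf3r, Cxcr2, Mmp8 and Mpo, summed to 0.761 and 0.873 CPM in the untreated libraries, 9.02 and 8.62 CPM with gefitinib, and 11.5 and 24.8 CPM with afatinib. Across the libraries the summed Wnt ligands ran in the same manner as the hair and cycling markers, at 72.5 and 84 CPM in the untreated libraries, 334 and 327 CPM with gefitinib, and 142 and 305 CPM with afatinib, with afatinib replicate 1 the lowest inhibitor library of each. Other lists rose in part or went down with both inhibitors, where 11% and 4.93% of all genes were higher and lower. Basal epidermis had 2 of 6 markers higher and sebocytes 3 of 7. The sums of sebocytes, dermal papilla, follicle stem cells, suprabasal epidermis and adipocytes were also lowest in afatinib replicate 1 among the inhibitor libraries. That order was therefore not particular to Wnt ligands, hair and cycling markers. Schwann cells had 5 of 6 lower and endothelium 3 of 6. Median log2 fold changes were -1.75 for skeletal muscle, -0.67 for fibroblasts and -0.31 for macrophages. The part of these cell types in the Wnt results was not tested.

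**Figure D5:**
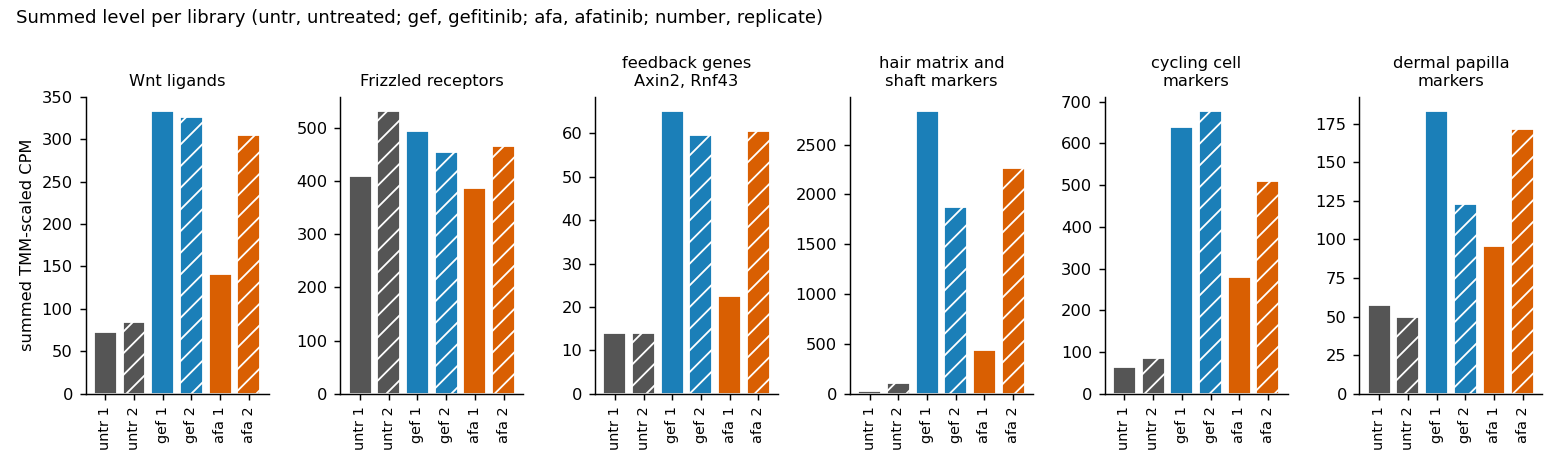
Summed TMM-scaled CPM (bars from 0, a separate axis for each panel) of Wnt ligands, Frizzled receptors, the feedback genes, and markers of hair matrix and shaft, cycling cells and dermal papilla, in each of the 6 libraries. Wnt ligands, feedback genes and hair markers are low in both untreated libraries and lower in afatinib replicate 1 than in the other inhibitor libraries, while the Frizzled sum stays between 386 and 532 CPM.

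Between the inhibitor groups no gene of the 51 passed, and neither did any of the 16398 (0%), where 946 had an unadjusted p under 0.05 and DESeq2 called 28 genes, none of them Wnt genes of this set. Fits that leave out 1 afatinib library set a single afatinib library against gefitinib. Their results differed with the library left out, so they do not settle this comparison. With all 6 libraries, 3 of the 43 tested genes had an unadjusted p under 0.05, near the 5.77% of all genes. Afatinib minus gefitinib was -1.53 ± 0.40 (adjusted p = 0.787) on the log2 scale for Wif1, -1.14 ± 0.38 (adjusted p = 0.787) for Wnt6 and 1.16 ± 0.35 (adjusted p = 0.787) for Fzd9. For Wif1 and Wnt6 both afatinib libraries were below both gefitinib libraries, and for Fzd9 both were above. The share of all genes separated in this way was not counted, so the separation adds nothing to the test. With 2 libraries a group and afatinib replicate 1 apart from its partner, a p that misses the threshold does not show that the inhibitors act alike.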

How the data were processed

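Back skin was flash frozen, RNA was taken up in Trizol, and TruSeq libraries were sequenced, per the labels' protocols. Per the submitters' processing notes the tools were DESeq2 1.16.1, HISAT2 2.0.5 and featureCounts 1.5.0-p3. Their roles, strand setting, annotation and genome build were not given in the sources used here. Whole reads per gene make up the deposited table of counts. The FPKM values deposited by the authors are proportional to each count over the product of the gene's length and a divisor of its library. That divisor was checked to be the DESeq2 size factor times 19675160.

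Counts were filtered with filterByExpr at its defaults, scaled with TMM and fitted in edgeR 4.0.16 (R 4.3.3; quasi-likelihood, 1 term per group over 6 libraries, 3 residual degrees of freedom), two-sided, with Benjamini-Hochberg adjustment over 16398 genes and a threshold of 0.05. The ± after a log2 fold change is its standard error, derived from the F statistic. The script was tested on simulated data. Unnamed loci, 1.68% to 2.54% of counts, stayed in. Floors cover counting error only, whereas the ± also takes in the spread between libraries as estimated in the fit.

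Values per library are given for genes called in any comparison, for the gene of each role with the highest mean FPKM, and for Axin2, Lgr5, Lgr6, Wnt10b, Wnt5a, Wnt3, Wnt4, Wif1, Dkk1 and Dkk2. Up to 2 genes per pathway list with the smallest p are named. A few genes outside this rule, such as Wnt3a, Wnt9a, Fzd5, Lrp6, Sfrp4 and Dkk3, were named after their values were seen. The genes and lists were chosen with earlier results of these data known. Promoter letters come from RefSeq's GRCr8 table. Alternatives were DESeq2 size factors within edgeR, library size only, no filter, DESeq2 1.42.0, a replicate block and leaving out each library.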

Additional observations from a re-analysis of the deposited data

How the results depend on the processing

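Of the 51 genes, 22 were called for gefitinib, 2 for afatinib and 23 for both inhibitors in edgeR. For afatinib the count rose to 15 with scaling by library size only, 26 with no filter on low counts and 25 with DESeq2, and the cause was not tested. Over all genes these fits gave 7.62%, 7.32% and 8.77% higher, against 3.6% in the main fit. They gave 0.189%, 2.02% and 2.85% lower, against 0.372%. The fit with no filter tested 49 of the 51 genes. Leaving out 1 library at a time gave 0 to 28 calls for gefitinib, 0 to 27 for afatinib and 0 to 31 for both inhibitors. Fewer samples and residual degrees of freedom are part of the construction of these fits, and a group left with 1 library is assumed to vary like the others. A replicate block gave 23, 2 and 21 calls and 0 between the inhibitors. Over all genes it gave 9.77%, 2.06% and 8.6% higher and 4.24%, 0.195% and 3.78% lower. It lost Fzd9 and gained Fzd5 and Lgr4 for gefitinib, exchanged Rspo2 for Wnt5a with afatinib, and lost Fzd2 and Fzd4 for both. The labels' replicate numbers did not pair the samples: deviations of same-numbered libraries correlated at 0.0331, 0.0374 and -0.174.

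Scaling by library size only moved the median of all genes to 0.73 for gefitinib, 0.71 for afatinib and 0.72 for both inhibitors, and against that shift it lost Fzd9 and Wnt16 (gefitinib), Sfrp5 (afatinib) and Fzd4 (both). No called log2 fold change of a gene changed sign in 517 recomputed values. Among values that were not called, Fzd9 with afatinib became 0.39 by library size only, and Dkk4, Lrp5 and Dkk2 with both inhibitors became 0.60, 0.50 and 0.15. Leaving out 1 library gave -0.65 to 0.21 for Fzd9, -0.14 to 0.02 for Dkk4 and -0.39 to 0.17 for Lrp5. Single-library values that changed sign were 0.0081 and 0.2109 for Fzd9, 0.0235 for Dkk4 and 0.1699 for Lrp5. Over all genes DESeq2 called 2012 lower against 893 in edgeR for gefitinib, 1713 against 808 for both inhibitors, and 1476 higher and 479 lower against 591 and 61 for afatinib. Depth limits the 8 untested genes and Wnt2 and Wnt9b, which had few counts in every library.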

Other observations

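Of the 7 tested genes on the follicle stem cell list, 2 were higher (28.6%) and 1 lower with gefitinib, where 12.3% and 5.45% of all genes were higher and lower. As 1 of the 2 was Krt75, a companion layer gene, and the list is short, these counts do not show a rise of stem cell markers. Among those not called, Cd34 gave -1.65 ± 0.57 (adjusted p = 0.0821). Krt15 gave 0.36 ± 0.47 (adjusted p = 0.594) and Sox9 gave 0.71 ± 0.45 (adjusted p = 0.282). Lhx2, a transcription factor of follicle progenitors, stood at 2.08 and 7.33 CPM untreated, 28.8 and 29.2 CPM with gefitinib and 21.8 and 29.3 CPM with afatinib, and it rose with gefitinib by 2.61 ± 0.54 (adjusted p = 0.022) on the log2 scale in edgeR's test. Krt75, a keratin of the companion layer, stood at 7.19 and 19 CPM untreated, 355 and 181 CPM with gefitinib and 84.7 and 201 CPM with afatinib, and it rose by 4.35 ± 0.68 (adjusted p = 0.0134). Nfatc1, a factor linked to resting bulge stem cells, stood at 35 and 57.2 CPM untreated, 16 and 13.3 CPM with gefitinib and 31.5 and 21.1 CPM with afatinib, and it fell by 1.66 ± 0.34 (adjusted p = 0.0215). Of the 9 dermal papilla markers, 8 had a positive log2 fold change with gefitinib and 2 were called higher (22.2%, against 12.3% of all genes). Crabp1 stood at 15.3 and 13.1 CPM untreated, 125 and 83.6 CPM with gefitinib and 57.9 and 69.4 CPM with afatinib, with 2.88 ± 0.30 (adjusted p = 0.00971), and Corin stood at 0.0692 and 0.582 CPM untreated, 5.84 and 6.39 CPM with gefitinib and 1.75 and 6.75 CPM with afatinib, with 4.16 ± 0.94 (adjusted p = 0.0289). Prom1, the one marker of this list below 0, stood at 28.1 and 16.1 CPM untreated, 4.23 and 4.29 CPM with gefitinib and 11.9 and 5.98 CPM with afatinib and fell by 2.37 ± 0.45 (adjusted p = 0.0185). The inhibitor libraries were above both untreated ones for Lhx2, Krt75, Crabp1 and Corin and below both for Nfatc1 and Prom1. These genes were named after their values were seen.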
